A study of Mus musculus with 12 samples.

Results

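The comparison of doxorubicin plus dexrazoxane (D_DXZ) with doxorubicin alone (DOX) was examined in H9c2 cells after 6 h of treatment, in 3 libraries of each group, which are 6 of the 12 libraries of the series. The genes were chosen by level alone: 10735 of the 54345 genes in the table had at least 1 FPKM (fragments per kilobase, a level corrected for gene length and library size) in at least 3 of the 6 libraries. Both groups received doxorubicin, so the only labelled difference is the addition of dexrazoxane, and the doses given to the sequenced cells are not stated in the sources used here. The series also holds untreated cells (Unt) and cells given doxorubicin with the nanocatalyst MgHCF (D_MgHCF), of which only the Unt levels are given below, as background beside the values compared. H9c2(2-1) is a wild-type myoblast line that the study describes as rat, whereas the labels give mouse as the organism and the table carries mouse Ensembl genes, so levels depend on how rat reads matched mouse genes. The labels number the replicates but do not say whether they came from separate cultures, so the tests measure the spread between these libraries, which may be technical. Each of the 6 libraries held between 17300819 and 19365119 reads on genes. Of the 7 myoblast markers examined, 1, the intermediate filament gene Vim, reached 1 FPKM, and Myog and Actc1 were listed at 0 in every DOX library. None of the 5 mature cardiomyocyte markers reached 1 FPKM. Of the markers of endothelial, leukocyte, epithelial, adipocyte and erythroid cells, Cd68 alone reached it, and the summed leukocyte markers ranged from 2.89 to 3.60 FPKM in DOX and from 3.82 to 4.37 FPKM in D_DXZ.

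Doxorubicin is an anthracycline that intercalates into DNA, traps topoisomerase II on broken DNA ends and takes part in redox cycles with iron, and injury of the heart limits its use against tumours. Dexrazoxane is given to patients to protect the heart. It inhibits topoisomerase II without trapping it on broken DNA, and its hydrolysis product binds iron. Both actions touch pathways whose genes can be followed here: the p53 response to DNA damage, the control of RNA polymerase II by the 7SK complex, iron handling, oxidative defence, and the short-lived transcripts whose level follows ongoing transcription.

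The differences between the groups were small. In the limma fit of the 6 libraries on log2(FPKM + 1), 93.4% of the tested genes differed by less than 0.5 on the log2 scale, the median size of the difference was 0.21, and the 5th and 95th percentiles were -0.41 and 0.47. A log2 difference of at least 1 was seen for 39 genes in the higher direction (0.363%) and 15 in the lower direction (0.14%). After Benjamini-Hochberg adjustment over all genes, 10 genes passed a p under 0.05 (0.0932%), of which 9 were higher (0.0838%) and 1 was lower (0.00932%) in D_DXZ. The filter on level was met through D_DXZ alone by 74 genes and through DOX alone by 31, so these had to differ in that direction, and 1 of the 9 higher genes, Gm25889, is among them. Without adjustment, 958 genes were higher (8.92%) and 1247 lower (11.6%) at a p under 0.05, in all 20.5%. The lower count was 2432 without DOX replicate 1, 489 without DOX replicate 2, 618 without DOX replicate 3 and 688 without D_DXZ replicate 1. The 3 libraries of each group did not overlap for 1249 genes that were higher (11.6%) and 1594 that were lower (14.8%) in D_DXZ, in all 26.5%. The median 95% confidence interval of a gene reached 0.32 to either side of its difference, which is more than the median difference. In bulk RNA, fewer cells of a kind and less RNA per cell cannot be told apart.

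**Figure D1:**
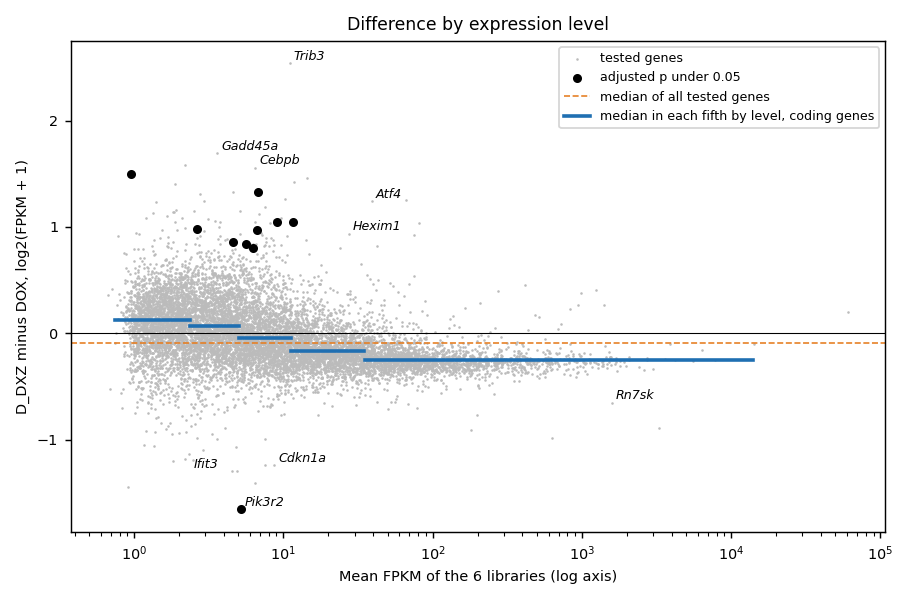
Difference between D_DXZ and DOX (y axis, mean D_DXZ minus mean DOX of log2(FPKM + 1)) against the mean FPKM of the 6 libraries (x axis, log scale) for the 10735 tested genes. Black points are the 10 genes with an adjusted p under 0.05, the dashed line is the median of all genes at -0.09, and the blue bars are medians of coding genes in quintiles by level, which go from 0.13 in the lowest quintile to -0.25 in the highest.

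The replicates differed among themselves nearly as much as the groups did. The mean Euclidean distance was 40.9 between libraries of different groups and 34.6 between libraries of the same group, a difference of 6.27 (exact permutation test, two-sided, p = 0.1, which is the smallest that 3 against 3 libraries allow). D_DXZ replicate 1 stood farthest from the DOX libraries, at 41.4, 51.6 and 55.9 from DOX replicates 1, 2 and 3. D_DXZ replicates 2 and 3 lay 33.6 to 41.0 from the DOX libraries, within the 27.4 to 40.8 seen among the DOX libraries except for the distance of 41.0 from replicate 2 to DOX replicate 3. Without D_DXZ replicate 1 the difference between the 2 kinds of distance was 3.27 (exact permutation p = 0.5). On the first principal component, with 49.97% of the variance, the scores were -24.1 and -18.3 for DOX replicates 3 and 2, 2.35 for DOX replicate 1, and 2.14, 7.73 and 30.3 for D_DXZ replicates 3, 2 and 1, so the groups overlapped.

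**Figure D2:**
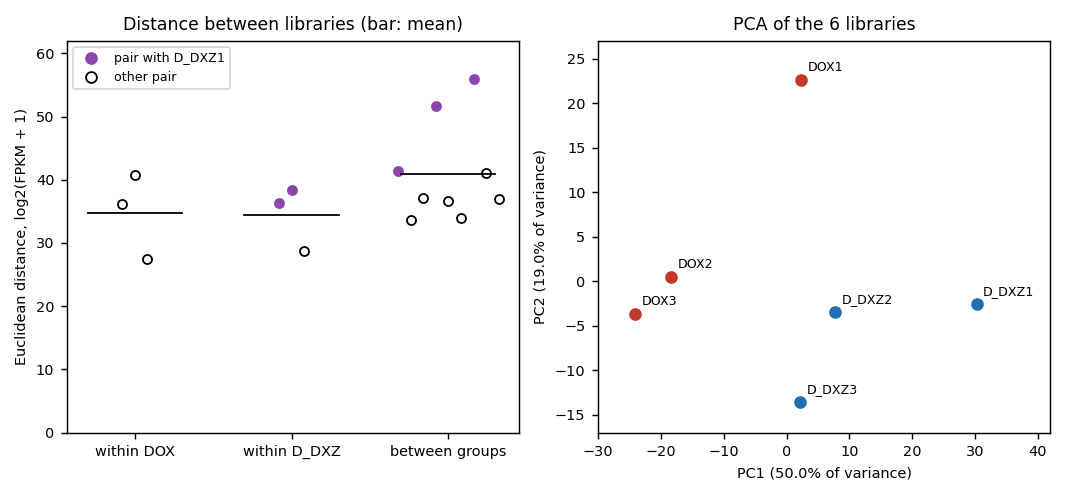
Left, Euclidean distance on log2(FPKM + 1) of each pair of libraries within DOX, within D_DXZ and between the groups (bars are means, filled points are pairs with D_DXZ replicate 1). Right, scores of the 6 libraries on the first and second principal components. The largest distances between groups, 51.6 and 55.9, involve D_DXZ replicate 1, and DOX replicate 1 lies beside D_DXZ replicate 3 on the first component.

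How the libraries were scaled moved the balance of directions. The library size implied by the deposited FPKM was 0.78, 0.67 and 0.65 times the reads on genes in DOX replicates 1, 2 and 3. In D_DXZ replicates 1, 2 and 3 it was 0.89, 0.76 and 0.75 times. A larger implied size lowers every FPKM value of its library, and its part in the differences was not tested. The median difference of all tested genes was -0.09 in the deposited FPKM, 0.06 after rescaling each library to the same summed value (TPM) and -0.02 after quantile normalization. Among genes with an unadjusted p under 0.05, 43.4% were higher in D_DXZ in the deposited FPKM, 68.2% with TPM and 54.1% with quantile normalization. Gene groups are therefore described below by their median minus that of all genes, a value called the relative median, and their counts at an unadjusted p under 0.05 are set against the 8.92% higher and 11.6% lower of all tested genes. All lists and members were chosen with earlier results of these data known. Their counts, medians and ranks are therefore no independent evidence of a direction.

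Of the 10 genes that passed the adjusted test, 8 rose in D_DXZ apart from Gm25889, and they have roles in cell surface signalling, sugar modification of proteins, nuclear RNA bodies, chromatin and 7SK. Gas1, a membrane protein linked to growth arrest and hedgehog signalling, was at 3.83, 4.42 and 4.32 FPKM in DOX and 9.62, 9.07 and 8.8 FPKM in D_DXZ (log2 difference 0.97 ± 0.11 SE, adjusted p = 0.0288). The D_DXZ libraries lay close together and far above the DOX libraries, and Unt was at 14.4 ± 0.428 FPKM (SD, n = 3). Ogt, the enzyme that attaches O-linked N-acetylglucosamine to nuclear and cytosolic proteins, was at 7.66, 7.01 and 6.98 FPKM in DOX and 19.2, 15.1 and 14 FPKM in D_DXZ (log2 difference 1.05 ± 0.13 SE, adjusted p = 0.0288), and Unt was at 33.9 ± 2.4. Neat1, the long noncoding RNA that scaffolds paraspeckles, was at 6.39, 5.32 and 5.05 FPKM in DOX and 14.4, 13.1 and 10.5 FPKM in D_DXZ (log2 difference 1.05 ± 0.14 SE, adjusted p = 0.0288), and Unt was at 26.5 ± 2.84. Gas1 lies on GRCm38 at chr13:60174405-60177365 on the minus strand, Ogt at chrX:101640060-101684351 on the plus strand and Neat1 at chr19:5824708-5845478 on the minus strand.

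The other coding genes that rose act in the nucleus. Zfp445, a zinc finger repressor that helps to keep imprints, was at 3.15, 2.71 and 3.12 FPKM in DOX and 6.45, 6.02 and 6.26 FPKM in D_DXZ (log2 difference 0.86 ± 0.11 SE, adjusted p = 0.0288). Pnisr, a nuclear protein with serine and arginine-rich stretches, was at 3.92, 3.95 and 3.31 FPKM in DOX and 7.34, 7.66 and 7.33 FPKM in D_DXZ (log2 difference 0.84 ± 0.11 SE, adjusted p = 0.0288). Mepce, the methyltransferase that caps 7SK RNA, was at 4.38, 4.34 and 4.18 FPKM in DOX and 8.18, 8.76 and 7.82 FPKM in D_DXZ (log2 difference 0.80 ± 0.11 SE, adjusted p = 0.0288). For these 3 genes the D_DXZ values exceeded those of DOX (2.09-fold, 2.00-fold and 1.92-fold in mean FPKM), with no overlap. Ing5, a chromatin reader in histone acetyltransferase complexes, was at 1.62, 1.45 and 1.28 FPKM in DOX and 3.93, 3.65 and 3.9 FPKM in D_DXZ (log2 difference 0.98 ± 0.13 SE, adjusted p = 0.0288). Its Unt level was 8.25 ± 0.413 FPKM. Zfp445 lies at chr9:122844529-122866006 (minus strand), Pnisr at chr4:21847583-21876475 (plus strand), Mepce at chr5:137781906-137787655 (minus strand) and Ing5 at chr1:93803965-93822101 (plus strand). Gas1, Zfp445, Neat1 and Ing5 overlap other annotated genes, and the library kit does not mark strand, so reads of overlapping genes cannot be told apart.

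The 2 shortest RNAs among the 10 genes, Snord91a and Gm25889, rest on few reads. Snord91a is printed because it is short enough to show what was counted, from the GENCODE M21 transcripts on GRCm38. Snord91a, a box C/D small nucleolar RNA of the kind that guides methylation of ribosomal RNA, lies at chr11:74905424-74905516 on the plus strand within Tsr1 and touches no exon of it. Gm25889, annotated as a small nuclear RNA, lies at chr11:106764635-106764741 on the minus strand within Milr1, again outside its exons. Capitals in Snord91a mark every CTGA, the letters of box D, and the ATGATG near the 5′ end, which resembles box C.
Snord91a: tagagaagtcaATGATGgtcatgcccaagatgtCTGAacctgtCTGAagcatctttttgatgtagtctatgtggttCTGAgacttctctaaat
Snord91a had 6, 3 and 4 reads in DOX and 15, 12 and 13 in D_DXZ, which is 4.25, 2.51 and 3.72 FPKM in DOX and 9.99, 9.85 and 10.5 FPKM in D_DXZ (log2 difference 1.32 ± 0.15 SE, adjusted p = 0.0288). Its reads were more numerous in each D_DXZ library than in any DOX library, and Unt was at 5.57 ± 2.26 FPKM. Gm25889 had no read in any DOX library and 5, 2 and 2 reads in D_DXZ, which in 2 of the 3 libraries is under the 3 reads that a count of 0 allows. It met the filter through D_DXZ alone, so neither a fold nor a test is given for it. These limits cover counting error only.

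Pik3r2, the p85 beta regulatory subunit of class I phosphoinositide 3-kinase, was the 1 gene that fell. It was at 6.44, 7.05 and 12 FPKM in DOX and 1.33, 1.99 and 2.58 FPKM in D_DXZ (log2 difference -1.65 ± 0.22 SE, adjusted p = 0.0288). The highest D_DXZ library was far below the lowest DOX library, and Unt was at 4.97 ± 2.26 FPKM. Pik3r2 lies at chr8:70768176-70776713 on the minus strand, with 6330537M06Rik overlapping on the plus strand. The 10 genes kept their direction in every alternative setting in which they could be fitted, but the calls did not hold. With TPM 2 genes passed, and 0 of them were among the 10. The number of genes with an adjusted p under 0.05 was 0 without D_DXZ replicate 1 (704 higher and 688 lower unadjusted), 0 without D_DXZ replicate 2 (785 higher and 1148 lower unadjusted) and 46 without D_DXZ replicate 3. With DOX replicate 1, 2 or 3 left out it was 2, 8 and 5, of which 1, 3 and 3 were among the 10. With limma voom on the reads recovered from the FPKM it was 349 (292 higher and 57 lower), of which 8 were among the 10.

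**Figure D3:**
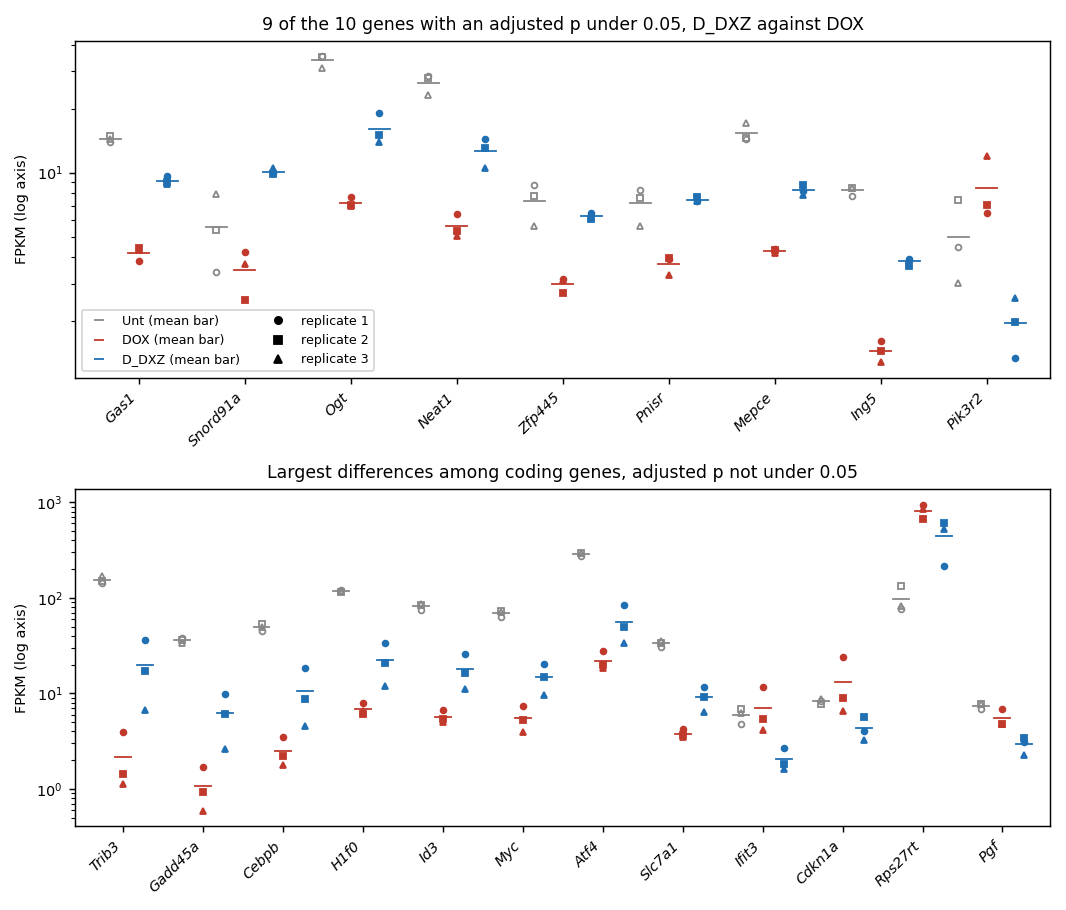
FPKM (log axis) in each Unt, DOX and D_DXZ library (symbols are replicates, bars are means of 3). Upper panel, 9 of the 10 genes with an adjusted p under 0.05, without Gm25889, which is listed at 0 in DOX. Lower panel, genes with the largest differences whose adjusted p was not under 0.05. In D_DXZ, replicate 1 is the highest and replicate 3 the lowest for Trib3 (35.8 and 6.62 FPKM), Atf4 and Myc.

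Several transcripts of the amino acid response had large differences that did not pass the adjusted test, and their D_DXZ libraries spread widely. ATF4 is the transcription factor whose translation rises when initiation factor eIF2 is phosphorylated, and its targets import and make amino acids or limit growth. Trib3, a pseudokinase and ATF4 target, was at 3.97, 1.43 and 1.14 FPKM in DOX and 35.8, 17.2 and 6.62 FPKM in D_DXZ (log2 difference 2.54 ± 0.49 SE, adjusted p = 0.0901), a 9.11-fold ratio of mean FPKM. Its D_DXZ libraries differed widely, yet the lowest exceeded the highest DOX library. Unt was at 153 ± 13.2 FPKM. Atf4 itself was at 27.7, 19.7 and 18.4 FPKM in DOX and 85.1, 49.6 and 33.9 FPKM in D_DXZ (log2 difference 1.24 ± 0.28 SE, adjusted p = 0.106). Cebpb, a partner of ATF4 in stress responses, was at 3.5, 2.23 and 1.78 FPKM in DOX and 18.2, 8.73 and 4.53 FPKM in D_DXZ (log2 difference 1.56 ± 0.37 SE, adjusted p = 0.106). For all 3 genes replicate 1 was the highest D_DXZ library and replicate 3 the lowest, and DOX replicate 1 was the DOX library nearest to D_DXZ. Reads of Cebpb and the overlapping Tmem189 annotation share 320 bases.

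Amino acid carriers stood beside them. Slc7a1, a carrier of arginine and lysine, was at 4.2, 3.66 and 3.49 FPKM in DOX and 11.7, 9.19 and 6.43 FPKM in D_DXZ (log2 difference 1.05 ± 0.18 SE, adjusted p = 0.0653). Slc38a2, a carrier of neutral amino acids, was at 5.93, 4.77 and 3.98 FPKM in DOX and 15.8, 9.95 and 8.38 FPKM in D_DXZ (log2 difference 1.04 ± 0.21 SE, adjusted p = 0.0901). Neither overlapped between groups. Of the 20 ATF4 response genes, all tested, 4 were higher and 0 lower at an unadjusted p under 0.05 (8.92% and 11.6% of all genes), none passed the adjusted test, and the relative median was 0.26 (0.27 with TPM and 0.18 with quantile normalization). Members lay on both sides: the serine synthesis enzymes Psat1 and Phgdh were at log2 differences of -0.36 and -0.28 and asparagine synthetase Asns at -0.30, while Ppp1r15a, which brings a phosphatase to eIF2, was at 0.68 (members named after their values were seen). The relative median was 0.06 without D_DXZ replicate 1, 0.17 without D_DXZ replicate 2 and 0.46 without D_DXZ replicate 3. Leaving out DOX replicate 1 gave 0.40, leaving out DOX replicate 3 gave 0.13, and it was 0.09 with FPKM of at least 5 as the filter.

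Growth and differentiation regulators were among the other large differences. Myc was at 7.42, 5.25 and 3.98 FPKM in DOX and 20.2, 14.9 and 9.67 FPKM in D_DXZ (log2 difference 1.26 ± 0.25 SE, adjusted p = 0.0901), and Unt was at 68.7 ± 5.16. Id3, an inhibitor of basic helix-loop-helix factors and target of bone morphogenetic protein signals, was at 6.73, 5.35 and 4.97 FPKM in DOX and 25.8, 16.3 and 11.2 FPKM in D_DXZ (log2 difference 1.42 ± 0.24 SE, adjusted p = 0.0653). H1f0, the linker histone of arrested and differentiated cells, was at 7.92, 6.03 and 6.52 FPKM in DOX and 33.9, 20.6 and 11.9 FPKM in D_DXZ (log2 difference 1.46 ± 0.29 SE, adjusted p = 0.0901). In each of these the 3 D_DXZ libraries lay above all DOX libraries but well below Unt, which was at 81.4 ± 6.1 for Id3 and 118 ± 2.72 for H1f0. Gadd45a, a stress sensor induced by p53 and by ATF4, was at 1.68, 0.928 and 0.588 FPKM in DOX and 9.8, 6.06 and 2.63 FPKM in D_DXZ (log2 difference 1.69 ± 0.34 SE, adjusted p = 0.0901), and an antisense gene overlaps it. Cited2, a coactivator-binding protein that restrains hypoxia-inducible factor, was at 2.57, 2.19 and 1.34 FPKM in DOX and 7.99, 5.0 and 3.35 FPKM in D_DXZ (log2 difference 1.05 ± 0.25 SE, adjusted p = 0.107). Cstf2t, a polyadenylation factor, was at 2.97, 1.89 and 1.38 FPKM in DOX and 8.39, 4.03 and 3.63 FPKM in D_DXZ (log2 difference 1.00 ± 0.27 SE, adjusted p = 0.128).

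Among the TGF-beta, BMP and Notch response genes, 6 of the 14 tested were higher and 0 lower at an unadjusted p under 0.05 (8.92% and 11.6% of all genes), and the relative median was 0.27 (0.29 with TPM and 0.13 with quantile normalization). The inhibitors of differentiation led the group. Id1 was at 10.7, 9.47 and 8.57 FPKM in DOX and 18.2, 23.4 and 14.5 FPKM in D_DXZ (log2 difference 0.88 ± 0.17 SE, adjusted p = 0.0885), and Id2 was at 2.4, 1.66 and 1.7 FPKM in DOX and 5.11, 3.13 and 2.55 FPKM in D_DXZ (log2 difference 0.62 ± 0.20 SE, adjusted p = 0.165). The ligands Tgfb1 and Tgfb3 were at -0.17 and -0.17, and the receptor Notch1 at -0.32 on the log2 scale (members named after their values were seen). The relative median was 0.12 without D_DXZ replicate 1, 0.17 without DOX replicate 3, 0.44 without DOX replicate 1 and 0.15 with FPKM of at least 5 as the filter.

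Immediate early genes, whose messages decay within minutes to hours and follow current transcription, were mixed. Of 23 tested, 7 were higher and 2 lower at an unadjusted p under 0.05 (8.92% and 11.6% of all genes), with a relative median of 0.24 (0.26 with TPM and 0.10 with quantile normalization). It was 0.93 with FPKM of at least 5 as the filter and 0.11 with FPKM above 0 as the filter. Leaving out D_DXZ replicate 2 gave 0.16, and leaving out DOX replicate 1 gave 0.35. Of the 23, 15 had a higher mean and 8 a lower one. On the lower side were Btg2 at -1.09, Maff at -0.41 and Dusp1 at -0.40 on the log2 scale (named after their values were seen). Btg2 is also among the p53 target genes below. Egr1, a zinc finger factor of growth signals, was at 4.92, 4.87 and 4.24 FPKM in DOX and 9.96, 7.74 and 7.98 FPKM in D_DXZ (log2 difference 0.75 ± 0.13 SE, adjusted p = 0.0653), with no overlap. Ier2 was at 7.44, 5.58 and 3.86 FPKM in DOX and 20.1, 13.8 and 7.23 FPKM in D_DXZ (log2 difference 1.08 ± 0.31 SE, adjusted p = 0.138), and D_DXZ replicate 3 was below DOX replicate 1. Jun was at 5.6, 4.13 and 2.82 FPKM in DOX and 6.12, 7.11 and 4.56 FPKM in D_DXZ (log2 difference 0.44 ± 0.21 SE, adjusted p = 0.259). Atf3 was at 5.93, 2.03 and 2.53 FPKM in DOX and 3.39, 3.93 and 1.6 FPKM in D_DXZ (log2 difference -0.13 ± 0.32 SE, adjusted p = 0.8), with overlap in both. Fos stayed below the level filter in most libraries, at 1.82, 0.828 and 0.515 FPKM in DOX and 0.369, 1.17 and 0.318 FPKM in D_DXZ, and was not tested. Nfkbia, the inhibitor of NF-kB, was at 3.85, 1.74 and 2.42 FPKM in DOX and 12.5, 6.64 and 3.81 FPKM in D_DXZ (log2 difference 1.15 ± 0.33 SE, adjusted p = 0.139). Of the 10 NF-kB genes tested, 1 was higher and 1 lower at an unadjusted p under 0.05 (8.92% and 11.6% of all genes), and 6 had a lower mean. Cxcl1, a chemokine that attracts neutrophils, was at 2.81, 2.74 and 1.94 FPKM in DOX and 4.92, 5.62 and 3.75 FPKM in D_DXZ (log2 difference 0.72 ± 0.16 SE, adjusted p = 0.101). It was the 1 member higher of 11 cytokine and chemokine genes tested, with 0 lower, and 6 of the 11 had a lower mean.

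Genes lower in D_DXZ were fewer among the large differences, and Pik3r2 was the 1 that passed the adjusted test. Cdkn1a, the p53 target that stops the cell cycle through cyclin-dependent kinases, was at 23.8, 9.05 and 6.49 FPKM in DOX and 4.01, 5.7 and 3.23 FPKM in D_DXZ (log2 difference -1.24 ± 0.37 SE, adjusted p = 0.147). DOX replicate 1 was far above the other libraries, and Unt was at 8.31 ± 0.479. Ifit3, an interferon-induced antiviral protein, was at 11.6, 5.36 and 4.11 FPKM in DOX and 2.7, 1.84 and 1.63 FPKM in D_DXZ (log2 difference -1.30 ± 0.29 SE, adjusted p = 0.101), and its sequence is 97.8% identical to Ifit3b over 1700 bases, so its level is uncertain. Rps27rt, a retrogene of a ribosomal protein, was at 945, 667 and 846 FPKM in DOX and 214, 609.6 and 523 FPKM in D_DXZ (log2 difference -0.99 ± 0.34 SE, adjusted p = 0.178); it is identical to Rps27 over 341 bases, and D_DXZ replicate 1 held the lowest value. Pgf, a growth factor of the VEGF family, was at 6.83, 4.78 and 4.82 FPKM in DOX and 3.09, 3.44 and 2.24 FPKM in D_DXZ (log2 difference -0.72 ± 0.17 SE, adjusted p = 0.106). Serpinb6b, a protease inhibitor, was at 29.8, 41.9 and 43.2 FPKM in DOX and 21.4, 24.4 and 24.2 FPKM in D_DXZ (log2 difference -0.68 ± 0.15 SE, adjusted p = 0.101). Slc9a3r1, a membrane scaffold, was at 34.4, 22.6 and 22.6 FPKM in DOX and 16.6, 15.2 and 15.6 FPKM in D_DXZ (log2 difference -0.68 ± 0.16 SE, adjusted p = 0.107).

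The remaining lower coding genes by the naming rule had log2 differences from -0.65 to -0.62. They were Nudt22, a UDP-sugar hydrolase (-0.65), Kazald1 (-0.65), the neurotrophic ligand Nrtn (-0.62), the RNA-binding protein gene Rbm43 (-0.62) and Mxd3, a partner of MAX in the Myc network (-0.62). Rbm43 had the narrowest replicates of these, at 6.43, 6.51 and 5.88 FPKM in DOX and 4.09, 3.33 and 3.81 FPKM in D_DXZ (adjusted p = 0.0885). Outside coding genes, the mitochondrial tryptophan tRNA mt-Tw was at 39.3, 29.1 and 23.2 FPKM in DOX and 47.1, 54.7 and 59.2 FPKM in D_DXZ (log2 difference 0.82 ± 0.18 SE, adjusted p = 0.101). It is 67 bases long and had 18 to 53 reads a library. It overlaps mt-Nd2 (log2 difference 0.46) on the same strand, and reads shared by them cannot be told apart. The pseudogene Rpl31-ps11, for which 13 near-identical genes were found (95% identity across 150 bases as the minimum), was at 3.15, 6.62 and 5.73 FPKM in DOX and 1.31, 2.23 and 2.58 FPKM in D_DXZ (log2 difference -1.0 ± 0.24 SE, adjusted p = 0.106).

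The 7SK complex and P-TEFb had the highest relative median of the gene lists examined in the fit described, 0.46 (0.50 with TPM, 0.33 with quantile normalization, and from 0.37 to 0.57 with 1 library left out). It was 0.20 with FPKM above 0 as the filter and 0.13 with FPKM of at least 5 as the filter. With the latter filter several lists stood higher: immediate early genes (0.93), SR splicing factors (0.39) and Zfp genes (0.23). So did the mitochondrially encoded proteins (0.20), replication-dependent histones (0.16) and TGF-beta, BMP and Notch response genes (0.15). 7SK RNA, capped by MEPCE and bound by LARP7, holds the kinase P-TEFb (CDK9 with a T-type cyclin) inactive through HEXIM1, and release of P-TEFb lets RNA polymerase II elongate. Of the 7 members tested, Mepce rose, and 4, Mepce among them, were higher and 0 lower at an unadjusted p under 0.05 (8.92% and 11.6% of all genes). Hexim1 was at 20.8, 18.9 and 15.8 FPKM in DOX and 29.7, 42.5 and 37.5 FPKM in D_DXZ (log2 difference 0.94 ± 0.16 SE, adjusted p = 0.0644), and Unt was at 12.4 ± 0.341. All 3 D_DXZ libraries were above all DOX libraries, and replicate 2 was the highest. The cyclin Ccnt2 was at 1.66, 1.8 and 1.51 FPKM in DOX and 2.78, 3.03 and 2.77 FPKM in D_DXZ (log2 difference 0.54 ± 0.13 SE, adjusted p = 0.106). Its relative Ccnt1 was at 4.29, 3.8 and 3.36 FPKM in DOX and 5.33, 4.92 and 5.41 FPKM in D_DXZ (log2 difference 0.37 ± 0.12 SE, adjusted p = 0.165). Cdk9 (-0.06 ± 0.11 SE) and Larp7 (-0.22 ± 0.14 SE) overlapped between the groups.

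The 7SK RNA itself, Rn7sk, was at 1143, 1992 and 2800.2 FPKM in DOX and 1364, 844 and 1429 FPKM in D_DXZ (log2 difference -0.65 ± 0.33 SE, adjusted p = 0.276), against 2.53 ± 0.939 FPKM in Unt. DOX replicate 1 lay below D_DXZ replicates 1 and 3, so the groups overlapped. Its share of the summed FPKM was 0.333% ± 0.109 in DOX and 0.240% ± 0.0769 in D_DXZ (SD, n = 3, exact permutation p = 0.4, two-sided). 7SK RNA carries no poly(A) tail, so its level in poly(A) libraries is not a measure of its amount in the cell, and 5 other annotated genes are near-identical to it.

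SR splicing factors, the serine and arginine-rich proteins that select exons, also lay above the median of all genes. Of 10 tested, 5 were higher and 0 lower at an unadjusted p under 0.05 (8.92% and 11.6% of all genes), none passed the adjusted test, and the relative median was 0.33 (0.36 with TPM, 0.29 with quantile normalization and 0.19 with FPKM above 0 as the filter). Srsf6 was at 29.8, 38.4 and 39.5 FPKM in DOX and 48.3, 49.9 and 54.1 FPKM in D_DXZ (log2 difference 0.50 ± 0.14 SE, adjusted p = 0.135). Srsf5 was at 40.7, 44.6 and 43.7 FPKM in DOX and 55.5, 62.3 and 62.3 FPKM in D_DXZ (log2 difference 0.47 ± 0.12 SE, adjusted p = 0.111). Srsf10 was at 22, 25.4 and 24.2 FPKM in DOX and 29.6, 33.3 and 32.2 FPKM in D_DXZ (log2 difference 0.39 ± 0.11 SE, adjusted p = 0.14). In each the groups did not overlap. Unt was at 56.6 ± 2.13 FPKM for Srsf6, 51.4 ± 5.4 for Srsf5 and 29.5 ± 4.82 for Srsf10. Srsf3 was at -0.02 and Srsf9 at -0.12 on the log2 scale (named after their values were seen).

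Zfp zinc finger genes, mostly repressors with short-lived messages, also had a median above that of all genes. Of 139 tested, Zfp445 rose, 30 in all were higher and 0 lower at an unadjusted p under 0.05 (8.92% and 11.6% of all genes), and 112 had a higher mean in D_DXZ, against 38.5% of all genes. However, 11 of the 139 met the filter on level through D_DXZ alone. Among the other 128, 22 were higher and 0 lower at an unadjusted p under 0.05, and 101 had a higher mean. The Zfp genes are scarce, and a higher mean was also common among scarce coding genes. It was seen for 69.6% of them in the lowest quintile by level and 61.7% in the next. Whether Zfp genes differed from other genes of like level was not tested. The relative median of all 139 was 0.26 (0.24 for the 128, 0.28 with TPM, 0.15 with quantile normalization, 0.14 with FPKM above 0 as the filter, and from 0.22 to 0.34 with 1 library left out). Zfp146 was at 1.11, 1.33 and 0.846 FPKM in DOX and 4.91, 2.59 and 2.36 FPKM in D_DXZ (log2 difference 0.99 ± 0.22 SE, adjusted p = 0.101). Zfp866 was at 0.529, 0.487 and 0.355 FPKM in DOX and 1.85, 1.46 and 1.3 FPKM in D_DXZ and is among the 11, so no test is given for it, and it shares 422 bases with the overlapping gene Gm20422.

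The p53 target genes lay below the median of all genes. Of 23 tested, 8 were lower and 1 was higher at an unadjusted p under 0.05 (11.6% and 8.92% of all genes), none passed the adjusted test, and the relative median was -0.16 (-0.17 with TPM and -0.13 with quantile normalization). Beside Cdkn1a, Eda2r, a death receptor of the TNF family, was at 6.0, 1.77 and 1.45 FPKM in DOX and 0.484, 0.557 and 0.699 FPKM in D_DXZ. It met the filter on level through DOX alone, so no test is given for it, and without it 7 of 22 were lower and the relative median was -0.10. Bax, which opens the outer mitochondrial membrane in apoptosis, was at 85.1, 93.6 and 92.9 FPKM in DOX and 66.7, 77.6 and 78.9 FPKM in D_DXZ (log2 difference -0.28 ± 0.12 SE, adjusted p = 0.241). DOX replicate 1 held the highest value of Cdkn1a and Eda2r, and the relative median of the list was -0.02 without it, -0.03 without D_DXZ replicate 3 and -0.08 without D_DXZ replicate 2. The 1 higher member was Gadd45a. Mdm2, the ligase that removes p53, was at 6.87, 3.56 and 3.16 FPKM in DOX and 5.23, 4.23 and 3.24 FPKM in D_DXZ (log2 difference -0.04 ± 0.23 SE, adjusted p = 0.925). Trp53 was at 57, 69.8 and 72.8 FPKM in DOX and 55.1, 51.9 and 58.5 FPKM in D_DXZ (log2 difference -0.26 ± 0.13 SE, adjusted p = 0.28), with overlap in both and a sign of Mdm2 that depended on the scaling.

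The genes that the study chose for apoptosis had small differences. Of 13 tested, 1 was lower (Bax) and 0 higher at an unadjusted p under 0.05 (11.6% and 8.92% of all genes). None passed the adjusted test. Cycs, the electron carrier whose release starts the apoptosome, was at 90.7, 109.7 and 112 FPKM in DOX and 73.2, 96.2 and 90.1 FPKM in D_DXZ (log2 difference -0.27 ± 0.15 SE, adjusted p = 0.307). Casp12 was at 10.2, 14.1 and 14.2 FPKM in DOX and 8.42, 12 and 11.9 FPKM in D_DXZ (log2 difference -0.24 ± 0.17 SE, adjusted p = 0.386). DOX and D_DXZ libraries overlapped for both. The survival gene Bcl2l1 was at 3.17, 1.58 and 1.62 FPKM in DOX and 2.15, 2.03 and 1.83 FPKM in D_DXZ (log2 difference -0.02 ± 0.19 SE, adjusted p = 0.947). Parp1, the polymerase that senses strand breaks, was at 99.5, 108 and 120.0 FPKM in DOX and 81.6, 100.4 and 107 FPKM in D_DXZ (log2 difference -0.19 ± 0.14 SE, adjusted p = 0.419). The groups overlapped here too, and the sign of Bcl2l1 and Parp1 depended on the scaling. The study selected this list on its own samples, so its counts are no independent evidence of a direction.

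DNA topoisomerases, the targets of both drugs, had small differences. Top2a, the isoform of dividing cells, was at 50.2, 53.5 and 57.4 FPKM in DOX and 49.7, 45.9 and 49.2 FPKM in D_DXZ (log2 difference -0.15 ± 0.12 SE, adjusted p = 0.415), with a 95% confidence interval of -0.41 to 0.11. Top2b, the isoform of resting and heart cells, was at 10.6, 13.6 and 14 FPKM in DOX and 11.4, 10.5 and 12.7 FPKM in D_DXZ (log2 difference -0.12 ± 0.13 SE, adjusted p = 0.574), with an interval of -0.42 to 0.18. The sign of both depended on the scaling. Tdp2, the phosphodiesterase that frees trapped topoisomerase II from DNA ends, was at 3.87, 3.15 and 3.63 FPKM in DOX and 5.69, 5.32 and 4.31 FPKM in D_DXZ (log2 difference 0.42 ± 0.13 SE, adjusted p = 0.161), with no overlap. Top1 was at 9.94, 11.5 and 11.7 FPKM in DOX and 8.97, 8.8 and 9.84 FPKM in D_DXZ (log2 difference -0.24 ± 0.11 SE, adjusted p = 0.263). Top1mt, the mitochondrial enzyme, was at 8.61, 8.28 and 9.61 FPKM in DOX and 7.43, 7.02 and 8.06 FPKM in D_DXZ (log2 difference -0.21 ± 0.11 SE, adjusted p = 0.298). Of the 9 genes of this list, 1 was higher and 0 lower at an unadjusted p under 0.05 (8.92% and 11.6% of all genes). By overlap between the libraries, 1 was higher (Tdp2) and 3 lower (Top2a, Top1 and Top1mt) with none, against 11.6% and 14.8% of all genes. The relative median was -0.01.

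In DNA damage signalling and repair, 3 of 22 tested genes were higher and 0 lower at an unadjusted p under 0.05 (8.92% and 11.6% of all genes), with a relative median of 0.03. Rnf168, the ubiquitin ligase that marks chromatin at breaks, was at 2.39, 1.96 and 1.76 FPKM in DOX and 4.9, 3.85 and 3.37 FPKM in D_DXZ (log2 difference 0.72 ± 0.15 SE, adjusted p = 0.0936). Mdc1, a scaffold at breaks, was at 8.14, 5.94 and 5.34 FPKM in DOX and 10.9, 9.71 and 7.95 FPKM in D_DXZ (log2 difference 0.50 ± 0.16 SE, adjusted p = 0.165). Nbn, of the MRN complex, was at 3.69, 4.71 and 4.68 FPKM in DOX and 6.94, 5.12 and 5.35 FPKM in D_DXZ (log2 difference 0.34 ± 0.14 SE, adjusted p = 0.224). Among drug handling genes, 2 of 10 were lower and 0 higher (11.6% and 8.92% of all genes). Xdh, which can reduce doxorubicin, was at 12, 11.7 and 12.1 FPKM in DOX and 7.99, 11.1 and 8.65 FPKM in D_DXZ (log2 difference -0.35 ± 0.13 SE, adjusted p = 0.198). Abcg2, an efflux pump, was at 6.57, 7.87 and 8.58 FPKM in DOX and 5.93, 5.81 and 6.35 FPKM in D_DXZ (log2 difference -0.30 ± 0.12 SE, adjusted p = 0.22). Dpys, dihydropyrimidinase, which opens the rings of dexrazoxane, was listed at 0 in 4 of the 6 libraries and at most at 0.0462 FPKM in the others, and was not tested.

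Iron genes had no common direction. Of 20 tested, 2 were higher and 2 lower at an unadjusted p under 0.05 (8.92% and 11.6% of all genes). The relative median of the list was -0.03. The transferrin receptor Tfrc, which brings iron into cells, was at 172, 216 and 249 FPKM in DOX and 169, 216 and 245 FPKM in D_DXZ (log2 difference -0.02 ± 0.19 SE, adjusted p = 0.959), with a 95% confidence interval of -0.43 to 0.40. Both groups covered the same range, the sign depended on the scaling, and Unt was at 23 ± 1.9. The ferritin chains that store iron also overlapped between groups. Fth1 was at 3259, 4183 and 4241 FPKM in DOX and 2673, 3689 and 3582 FPKM in D_DXZ (log2 difference -0.24 ± 0.22 SE, adjusted p = 0.5). Ftl1 was at 1015, 1319 and 1293 FPKM in DOX and 884, 1163 and 1125 FPKM in D_DXZ (log2 difference -0.19 ± 0.19 SE, adjusted p = 0.516). Both turned to the higher side with quantile normalization. Slc40a1, the iron exporter, reached at most 0.151 FPKM in the 6 libraries and was not tested.

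Of the 20 iron genes tested, 2 lay higher in every D_DXZ library than in any DOX library, against 11.6% of all genes. Ireb2, the iron regulatory protein that stabilises Tfrc messages and blocks ferritin translation when iron is scarce, was at 4.14, 3.5 and 3.63 FPKM in DOX and 6.89, 6.11 and 6.29 FPKM in D_DXZ (log2 difference 0.64 ± 0.12 SE, adjusted p = 0.0815), with no overlap. Slc25a37, the carrier of iron into mitochondria, was at 6.79, 5.64 and 4.9 FPKM in DOX and 8.17, 9.31 and 8.94 FPKM in D_DXZ (log2 difference 0.54 ± 0.13 SE, adjusted p = 0.108). Glrx5, which passes on iron-sulfur clusters, was lower, at 56, 54.7 and 53.9 FPKM in DOX and 39.7, 45 and 42.2 FPKM in D_DXZ (log2 difference -0.37 ± 0.11 SE, adjusted p = 0.154), and Unt was at 20.9 ± 1.98. Among hypoxia-inducible factor targets, which respond to loss of iron because the prolyl hydroxylases need it, 3 of 16 were higher and 1 lower at an unadjusted p under 0.05 (8.92% and 11.6% of all genes). The relative median of these targets was -0.07 (-0.05 with TPM and -0.01 with quantile normalization), and 5 of the 16 had a higher mean, against 38.5% of all genes. Egln3, a prolyl hydroxylase and itself a target, was at 5.27, 4.42 and 5.0 FPKM in DOX and 2.72, 3.07 and 3.21 FPKM in D_DXZ (log2 difference -0.56 ± 0.12 SE, adjusted p = 0.101). The angiogenic factor Vegfa was at 17.8, 14.6 and 11.7 FPKM in DOX and 20.6, 23 and 17.9 FPKM in D_DXZ (log2 difference 0.47 ± 0.16 SE, adjusted p = 0.176), and hexokinase Hk2 at 3.52, 2.7 and 1.98 FPKM in DOX and 4.71, 4.21 and 3.54 FPKM in D_DXZ (log2 difference 0.48 ± 0.17 SE, adjusted p = 0.181).

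Oxidative defence genes differed by small amounts, mostly in the lower direction in the deposited FPKM. Of the iron and ferroptosis genes that the study chose, 11 were tested. At an unadjusted p under 0.05, 1 was lower and 0 higher (11.6% and 8.92% of all genes). This list too was selected on the study's own samples. The lower gene was Gss, glutathione synthetase, at 15, 16.6 and 17.4 FPKM in DOX and 11.6, 13.2 and 13.8 FPKM in D_DXZ (log2 difference -0.32 ± 0.12 SE, adjusted p = 0.188). Gpx4, which removes lipid peroxides, was at 399, 490.0 and 473 FPKM in DOX and 294, 398 and 389 FPKM in D_DXZ (log2 difference -0.34 ± 0.17 SE, adjusted p = 0.276). Hmox1, heme oxygenase, was at 16.7, 10.6 and 6.81 FPKM in DOX and 13.2, 7.63 and 6.84 FPKM in D_DXZ (log2 difference -0.25 ± 0.29 SE, adjusted p = 0.591), and its inducer Nfe2l2 (NRF2) at 8.73, 6.61 and 6.7 FPKM in DOX and 8.86, 7.22 and 7.3 FPKM in D_DXZ (log2 difference 0.08 ± 0.14 SE, adjusted p = 0.718). Of 18 NRF2 targets, 3 were lower and 0 higher at an unadjusted p under 0.05 (11.6% and 8.92% of all genes). The relative median of this list was -0.16 (-0.14 with TPM and -0.02 with quantile normalization). Gsta4, a glutathione transferase for lipid aldehydes, was at 88.4, 98.3 and 93.1 FPKM in DOX and 52.1, 73.4 and 69.4 FPKM in D_DXZ (log2 difference -0.53 ± 0.15 SE, adjusted p = 0.138). Srxn1, which restores peroxiredoxins, was at 16.4, 14.7 and 12.9 FPKM in DOX and 9.18, 11.5 and 11.5 FPKM in D_DXZ (log2 difference -0.42 ± 0.13 SE, adjusted p = 0.161). All 13 tested superoxide dismutases and peroxidases had a lower mean in D_DXZ, from -0.46 to -0.18 on the log2 scale. At an unadjusted p under 0.05, 2 were lower (11.6% of all genes). A higher mean was seen for 38.5% of all tested genes. It was seen for 4.36% of coding genes in the highest quintile by level, whose median log2 difference was -0.25. The relative median of the 13 was -0.19 (-0.17 with TPM and -0.02 with quantile normalization). Sod3, the extracellular dismutase, was at 10.1, 13.4 and 13 FPKM in DOX and 6.81, 9.53 and 9.56 FPKM in D_DXZ (log2 difference -0.46 ± 0.16 SE, adjusted p = 0.177).

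Interferon response genes had a median below that of all genes under each of the 3 scalings. Of 17 tested, 9 were lower and 1 higher at an unadjusted p under 0.05 (11.6% and 8.92% of all genes), none passed the adjusted test, and the relative median was -0.26 (-0.25 with TPM, -0.24 with quantile normalization, -0.15 with FPKM of at least 5 as the filter, and from -0.34 to -0.20 with 1 library left out). Beside Ifit3, Oasl2, a relative of the antiviral 2′-5′ oligoadenylate synthetases, was at 9.79, 8.08 and 7.16 FPKM in DOX and 6.09, 5.49 and 5.46 FPKM in D_DXZ (log2 difference -0.48 ± 0.13 SE, adjusted p = 0.132). Usp18 (-0.61), Isg15 (-0.52) and Mx2 (-0.47), named after their values were seen, lay on the same side. Of the 17, 13 had a lower mean and 4 a higher one. Stat2 (0.24), Irf1 (0.04) and Ifit2 (0.02), also named after their values were seen, were among the 4. Irf9, a subunit of the transcription factor that drives these genes, was the 1 member higher at an unadjusted p under 0.05. It was at 2.78, 3.2 and 2.68 FPKM in DOX and 6.0, 4.62 and 4.06 FPKM in D_DXZ (log2 difference 0.59 ± 0.15 SE, adjusted p = 0.111).

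**Figure D4:**
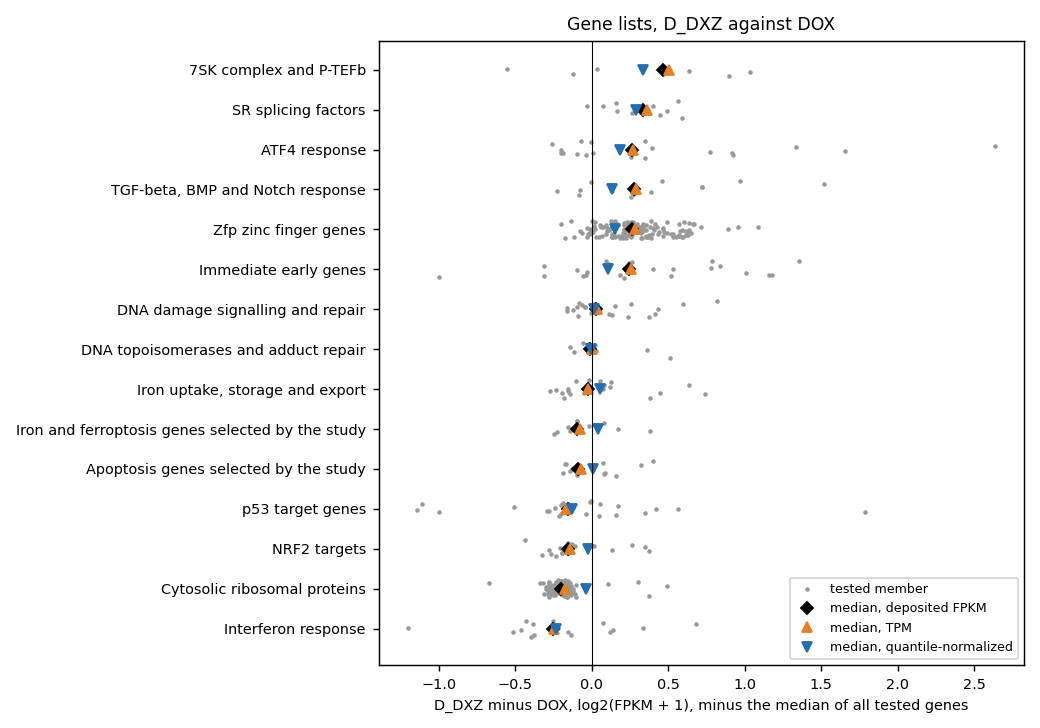
Log2 difference between D_DXZ and DOX minus the median of all tested genes (x axis) for the tested members of 15 gene lists (grey points), with list medians in deposited FPKM (diamonds), TPM (upward triangles) and after quantile normalization (downward triangles). The 7SK list lies at 0.46, 0.50 and 0.33 and the interferon list at -0.26, -0.25 and -0.24, while cytosolic ribosomal proteins lie at -0.20, -0.18 and -0.04.

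Abundant housekeeping groups shared a small negative difference. Of 86 cytosolic ribosomal proteins, 22 were lower and 0 higher at an unadjusted p under 0.05 (11.6% and 8.92% of all genes), with a relative median of -0.20. Rps13, with 5 near-identical copies elsewhere, was at 242, 268 and 263 FPKM in DOX and 161, 213 and 199.9 FPKM in D_DXZ (log2 difference -0.43 ± 0.15 SE, adjusted p = 0.176). Of 75 nuclear-encoded respiratory chain subunits, 19 were lower and 0 higher (relative median -0.18), among them Ndufb10 of complex I at 127, 146 and 137 FPKM in DOX and 94, 96.1 and 106 FPKM in D_DXZ (log2 difference -0.46 ± 0.13 SE, adjusted p = 0.128). Proteasome subunits had 10 lower and 0 higher of 37 (relative median -0.19), among them Psmb10 at -0.48, and aminoacyl-tRNA synthetases had 7 lower and 0 higher of 20 (relative median -0.19). Each of these counts stands beside the same 11.6% lower and 8.92% higher of all genes. The relative medians of these 4 lists lay between -0.18 and -0.16 with TPM and between -0.04 and -0.01 with quantile normalization. Abundant coding genes in general were also lower: the highest quintile by level had a median log2 difference of -0.25. In that quintile 22.9% were lower without overlap, against 27 of 86, 20 of 75, 10 of 37 and 9 of 20 in these lists, in the order given. Whether the lists differed from other genes of like level was not tested. The muscle enolase Eno3 was at -0.50 and the actin-binding protein Cnn2 at -0.57 on the log2 scale. The share of mitochondrially encoded genes in the summed FPKM was 5.73% ± 0.286 in DOX and 6.29% ± 0.512 in D_DXZ (SD, n = 3, exact permutation p = 0.3, two-sided).

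Cell cycle, transcription machinery, histone and sterol genes held single members with larger differences. Ccna2, cyclin A2, was at 9.03, 6.85 and 6.8 FPKM in DOX and 17.4, 12.1 and 10.9 FPKM in D_DXZ (log2 difference 0.74 ± 0.18 SE, adjusted p = 0.106). Ect2, needed for cytokinesis, was at 7.55, 9.22 and 9.52 FPKM in DOX and 16.4, 9.93 and 13.2 FPKM in D_DXZ (log2 difference 0.52 ± 0.17 SE, adjusted p = 0.166). Of 24 mitosis genes tested, 3 were higher and 1 lower at an unadjusted p under 0.05 (8.92% and 11.6% of all genes). The lower one was Ccnb2 at -0.33 on the log2 scale, and 13 of the 24 had a lower mean. Of 32 DNA replication genes tested, 1 was higher and 3 lower, among them Gins2 at -0.36, and 23 had a lower mean. Of the 40 RNA polymerase II and Mediator subunits tested, 7 were higher and 3 lower at an unadjusted p under 0.05 (8.92% and 11.6% of all genes). Med6 at 0.60 and Med29 at -0.58 on the log2 scale lay on opposite sides. The linker histone Hist1h1c was at 16, 17 and 18.6 FPKM in DOX and 27.7, 35.4 and 29.3 FPKM in D_DXZ (log2 difference 0.80 ± 0.13 SE, adjusted p = 0.0586), whereas Hist1h3c, with 9 near-identical copies, was at 2.72, 4.82 and 3.98 FPKM in DOX and 2.56, 1.33 and 2.61 FPKM in D_DXZ (log2 difference -0.62 ± 0.21 SE, adjusted p = 0.178). Among 19 cholesterol synthesis genes 4 were higher and 3 lower at an unadjusted p under 0.05 (8.92% and 11.6% of all genes). Insig1, which retains the sterol sensor in the endoplasmic reticulum, was at 12, 12.9 and 13.8 FPKM in DOX and 20.3, 18.7 and 18.1 FPKM in D_DXZ (log2 difference 0.53 ± 0.11 SE, adjusted p = 0.0936). Hmgcs1, an early enzyme of the pathway, was at 7.33, 7.09 and 7.04 FPKM in DOX and 10.7, 9.4 and 10.4 FPKM in D_DXZ (log2 difference 0.46 ± 0.11 SE, adjusted p = 0.106), and the sterol carrier Stard4 at 5.86, 6.29 and 5.6 FPKM in DOX and 9.24, 7.64 and 8.54 FPKM in D_DXZ (log2 difference 0.45 ± 0.11 SE, adjusted p = 0.116). Herpud1, a protein of degradation at the endoplasmic reticulum, was at 5.34, 4.18 and 4.0 FPKM in DOX and 13.5, 9.68 and 6.16 FPKM in D_DXZ (log2 difference 0.92 ± 0.22 SE, adjusted p = 0.109). Of the 19 unfolded protein response and chaperone genes tested, 2 were higher and 0 lower at an unadjusted p under 0.05, and 12 had a lower mean. The nucleolar protein gene Rrs1 was at 7.17, 5.4 and 4.77 FPKM in DOX and 17.6, 9.95 and 7.31 FPKM in D_DXZ (log2 difference 0.83 ± 0.26 SE, adjusted p = 0.158). Of the 24 RNA polymerase I and nucleolar genes tested, 2 were higher and 5 lower (8.92% and 11.6% of all genes). A lower mean was seen for 16 of them, among them Rrp9 at -0.38.

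The difference of a gene went with its level, length and base composition. Among the 9292 coding genes tested, the median log2 difference was 0.13 in the lowest quintile by mean FPKM and -0.25 in the highest quintile, where 4.36% of genes had a higher mean in D_DXZ. It was -0.22 in the quintile with the shortest exonic length (up to 2.42 kb) and 0.04 in the longest (from 7.41 kb). By GC content it was 0.01 in the lowest quintile and -0.16 in the highest. The 756 processed pseudogenes tested had a median of -0.23, and the 70 small nucleolar RNAs one of 0.15. These properties overlap, since the ribosomal, respiratory chain and proteasome genes above are short and abundant while the Zfp genes are scarce, and their part in the differences of the gene lists was not tested.

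The trend with level was also seen in single libraries. Relative to the mean of DOX, the median of the highest quintile by level was -0.45 in D_DXZ replicate 1, -0.16 in replicate 2 and -0.14 in replicate 3. It was -0.19 in DOX replicate 1, 0.07 in DOX replicate 2 and 0.12 in DOX replicate 3. DOX replicate 1 thus lay on the side of D_DXZ, below D_DXZ replicates 2 and 3, and D_DXZ replicate 1 went farther than any other library. In the longest quintile by exonic length the D_DXZ libraries were at 0.06, 0.02 and 0.05 and the DOX libraries at -0.04, -0.01 and 0.04, so the libraries overlapped there.

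**Figure D5:**
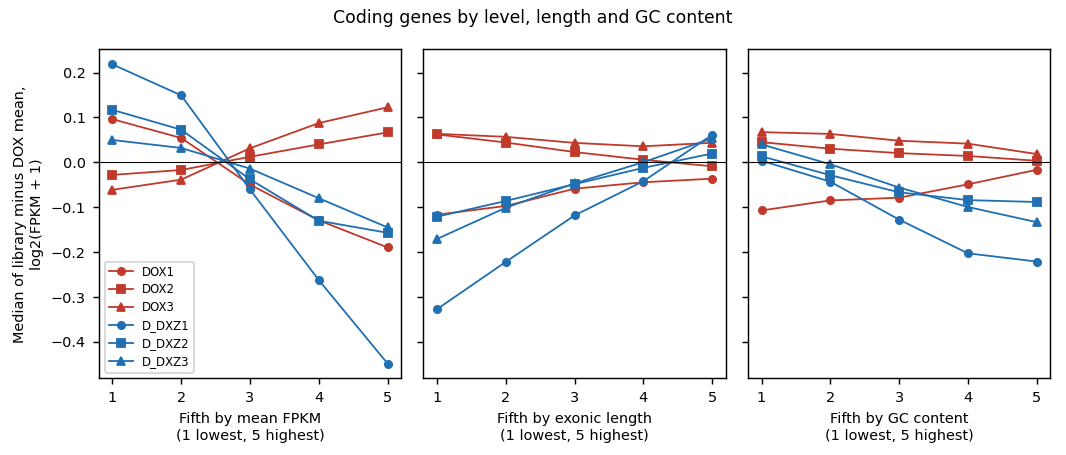
Median over coding genes of each library minus the DOX mean on log2(FPKM + 1) (y axis), in quintiles by mean FPKM, exonic length and GC content (x axes, from lowest to highest). Colours are groups and symbols are replicates. D_DXZ replicate 1 goes from 0.22 in the lowest to -0.45 in the highest quintile by level, and DOX replicate 1 from 0.10 to -0.19.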

How the data were processed

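The study made NEBNext Ultra libraries, which do not mark strand, from poly(A) RNA of the cells. The submitters' processing notes name HISAT2 2.0.5 and GRCm38, and the counting program is not given in the sources used here. The authors deposited FPKM values of 54345 genes, 1 column per library and no sample column left unused. FPKM times gene length was a whole multiple of 1 step per library (tolerance 0.05), so whole reads were recovered at 100% of entries. Genes with at least 1 FPKM in at least 3 of the 6 libraries were tested on log2(FPKM + 1) with limma 3.58.1 in R 4.3.3 (trend, two-sided, no covariate, only DOX and D_DXZ in the fit) and Benjamini-Hochberg adjustment over the 10735 genes. The pseudocount makes differences of low genes smaller. The study's figure captions name a negative binomial test, which needs counts. Distances and shares were tested with exact permutation tests. PCA used the same values. Scripts ran in Python 3.11.15.

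Named genes were those with an adjusted p under 0.05 (at most 10 per direction), the 12 largest coding differences per direction with an unadjusted p under 0.05, no overlap and at least 5 FPKM in the higher group, the 3 largest of other biotypes, up to 3 members of smallest p per list, and drug, iron and p53 anchors. Members and lists were chosen with earlier results of these data known. A gene is not reported here and was left out of its list. Near-identical copies (at least 95% identity over 150 bases, or over most of a shorter transcript) came from a BLAST 2.17.0 search of GENCODE M21 transcripts, and 33 of 105 genes examined had one while 38 overlapped another gene. The limma step was tested on simulated data. The same numbers on replicates were checked for pairing: correlations of deviations from the group means were 0.41, 0.05 and 0.35 for numbers 1, 2 and 3. Between different numbers they ranged from -0.44 to 0.22. The labels do not state pairing, so the fit described took no pairs, and a fit with a replicate block is given below.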

Additional observations from a re-analysis of the deposited data

How the results depend on the processing

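The number of genes with an adjusted p under 0.05 (10 in the fit described) ranged widely: 9 with a pseudocount of 0.1, 0 with FPKM above 0 as the filter (1324 higher and 1558 lower unadjusted), 188 with FPKM of at least 5, 2 with TPM (0 of the 10), 35 with quantile normalization, 2 with all 12 libraries, 437 with 9 libraries, 349 with voom on recovered reads, and from 0 to 46 with 1 library left out. Genes higher at an unadjusted p under 0.05 numbered 344 with FPKM of at least 5. Those lower numbered 559 with TPM, 816 with all 12 libraries and from 489 to 2432 with 1 library left out. The share of unadjusted calls that were higher was 24.6% with FPKM of at least 5. The causes were not tested. The distance difference kept its sign under all its alternatives (3.27 to 9.93 with 1 library left out), as did both shares.

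With a replicate block the adjusted test gave 2040 genes (517 higher and 1523 lower), the unadjusted one 3071 lower and 29.5% higher. Not every library correlated best with its own number: DOX replicate 2 did so with D_DXZ replicate 3 (0.22).

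Of 102 tested genes named or examined, 91 kept their sign under every alternative. Signs turned to positive with TPM for Top2a (0.0234), Top2b (0.0469), Tfrc (0.16), Mdm2 (0.12) and Bcl2l1 (0.11), and with quantile normalization for Top2a (0.0672), Tfrc (0.26), Fth1 (0.0220), Ftl1 (0.00729) and Parp1 (0.0708). With 1 library left out the log2 differences crossed 0 for Tfrc from -0.16 to 0.13, Hmox1 from -0.54 to 0.0503, Nfe2l2 from -0.00576 to 0.19, Mdm2 from -0.21 to 0.25, Bcl2l1 from -0.14 to 0.21 and Atf3 from -0.37 to 0.23. Depth limits Snord91a, with 3 to 15 reads a library, and Gm25889, with 0 to 5.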
